A study of Homo sapiens with 22 samples.

Results

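Glycolysis and the pentose phosphate pathway were followed as a set of 36 genes through the maturation of HUDEP-2 cells, an immortalized line of human erythroid progenitors. The genes were taken by symbol, not by how they behaved: transporters of glucose and lactate, the enzymes of glycolysis with their isozymes, the PFKFB enzymes, the pentose phosphate enzymes, and PDK1, PDK3, HIF1A and VHL. Of these, 35 stood among the 59087 gene names of both count tables, and all 35 passed the filter on low counts in both experiments. The remaining gene, PGLS, was not analysed here.

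RNA-Seq libraries came from 2 experiments with separate count tables, and expression was compared within each table. Subclones numbered 2 for H2A.X WT, 3 for H2A.X KO and 3 for each of BAZ1B WT and BAZ1B KO, and each was taken at D0, in expansion medium with SCF, EPO, dexamethasone and doxycycline, and at D6 of differentiation, in medium with plasma, heparin, holo-transferrin, insulin, SCF, EPO and doxycycline. KO cells were made with Cas9 and a pair of guides on lentiviral vectors that carried GFP and mCherry, sorted for both colors and grown from isolated cells, so that the KO cells are clonal. The columns number the KO subclones 1 to 3, and p-values measure the spread between these subclones. The published text states that WT subclones went through the procedures used for the KO lines, without naming a vector for them. The H2A.X deletion ran from before the start codon to behind the stop codon, while the BAZ1B deletion took out the start codon and the first exon and left the rest of the transcript in place.

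Library totals were 11910141 to 21013004 counts in the H2A.X experiment and 33199408 to 41273244 in the BAZ1B experiment, where the biological coefficient of variation was 0.0865 against 0.239. H2AFX, the table's name for the H2A.X gene, lay at 18.8% to 44.4% of the WT mean in the KO libraries at D0 and at 14.9% to 50.8% at D6. BAZ1B mRNA lay at 66.8% to 85.1% and 73.9% to 80.0% of the WT mean in its KO libraries, in which most of the transcript remains. All 7 erythroid markers analysed (ALAS2, SLC4A1, AHSP, GATA1, KLF1, TFRC, EPOR) rose from D0 to D6 in BAZ1B WT, BAZ1B KO and H2A.X KO, and none passed the test in H2A.X WT. At D0, 6 of the 7 were lower in H2A.X KO than in WT. The 3 lymphoid markers had at most 3 reads in every library, as did 3 of the 4 megakaryocyte markers (all but ITGA2B), whereas mast cell and eosinophil genes were expressed at D0. Of the column names, 5 of the 6 H2A.X KO columns carry the word Redo (all but KO replicate 3 at D6) and none of the 4 WT columns does, so what it marks cannot be told apart from the genotype at D0.

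Glycolysis splits glucose to pyruvate and yields ATP and NADH. The mature red cell, which has no mitochondria, depends on it for all of its ATP, uses its NADH to keep hemoglobin iron reduced, and sends part of the flow through bisphosphoglycerate mutase (BPGM), whose product lowers the oxygen affinity of hemoglobin. The pentose phosphate branch makes NADPH against oxidants and ribose for nucleotides. Several steps are shared by isozymes from different genes, and the pyruvate kinase of the red cell is known to change from PKM to PKLR as erythroblasts mature.

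The 250 bases in front of the start of 2 members are shown because their mRNAs moved in opposite directions in maturation. They are RefSeq sequences of GRCh38.p14, and windows of 31 of the 35 genes were used here. In front of PKLR (chr1:155301439-155301688, minus strand, the end toward the gene last), capitals mark AGATAA or TGATAA on either strand, the letters bound by GATA factors. In front of LDHA (chr11:18394313-18394562, plus strand), capitals mark ACGTG or GCGTG on either strand, the core of hypoxia response elements.
PKLR: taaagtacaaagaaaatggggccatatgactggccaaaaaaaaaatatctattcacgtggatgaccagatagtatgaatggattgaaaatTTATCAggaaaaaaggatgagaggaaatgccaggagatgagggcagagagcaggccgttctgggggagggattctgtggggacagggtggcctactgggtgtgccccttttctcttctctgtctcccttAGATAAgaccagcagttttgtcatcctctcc
LDHA: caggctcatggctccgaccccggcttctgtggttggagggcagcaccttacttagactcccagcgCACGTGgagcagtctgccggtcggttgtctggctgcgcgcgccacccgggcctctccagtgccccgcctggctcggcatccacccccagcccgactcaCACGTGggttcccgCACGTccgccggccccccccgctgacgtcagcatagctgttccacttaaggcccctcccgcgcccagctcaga
The PKLR window held 2 GATA matches, at -160 and -31 from the start, and the LDHA window 5 matches of the hypoxia core at -185, -184, -87, -86 and -73, as the letters CACGTG read the same on both strands and count 2 times. GATA letters stood in 2 of the 31 windows (PKLR and PGAM1), or 6.45%, against 11.8% of all 19087 windows. Hypoxia core letters stood in 21 of 31, or 67.7%, against 49.0% of all windows. The E-box CACGTG, which overlaps the hypoxia core, was found in 16.1% of the members' windows and 7.43% of all, and CACCC, read by KLF factors, in 71.0% and 57.1%. The PKLR window also held 2 hypoxia core matches and 1 E-box, which are not marked. Hypoxia core letters stood in 8 of 11 windows of members higher at D6 in both BAZ1B genotypes. They stood in 7 of 11 windows of members lower in both, and GATA letters in 1 of 11 of each. The E-box stood in 1 of 11 windows of members higher and 3 of 11 of members lower, and CACCC in 7 and 8 of 11. With 11 windows a side these counts are a description, and a difference between the directions was not tested. These are matches of letters, and no binding was measured.

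The clearest change of maturation in the BAZ1B experiment was an exchange of isozymes at several steps of glycolysis. From D0 to D6, 30 of 35 genes passed the test in WT, 11 higher and 19 lower, or 85.7% beside 68.9% of all 13879 genes tested (33.5% higher and 35.4% lower). In BAZ1B KO 27 passed, 13 higher and 14 lower, or 77.1% beside 67.7% (33.2% higher and 34.5% lower). The median log2 change of the members was -0.45 in WT and -0.13 in KO, where that of all genes was -0.02 in each. Calls rest on an adjusted p below 0.05 (edgeR quasi-likelihood test, Benjamini-Hochberg over all genes tested). SLC2A1, HK1, PFKL, PFKM, BPGM, ENO2, PKLR, PGD, RPIA, TALDO1 and HIF1A were higher at D6 in both genotypes. The 14 genes lower in both were SLC2A3, SLC16A1, HK2, GPI, PFKP, TPI1, GAPDH, PGK1, PGAM1, ENO1, PKM, LDHA, PFKFB3 and VHL. Since the values are relative to the other RNA of a library, and the libraries are bulk samples, fewer cells of a kind and less RNA per cell cannot be told apart in any of these differences.

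**Figure D1:**
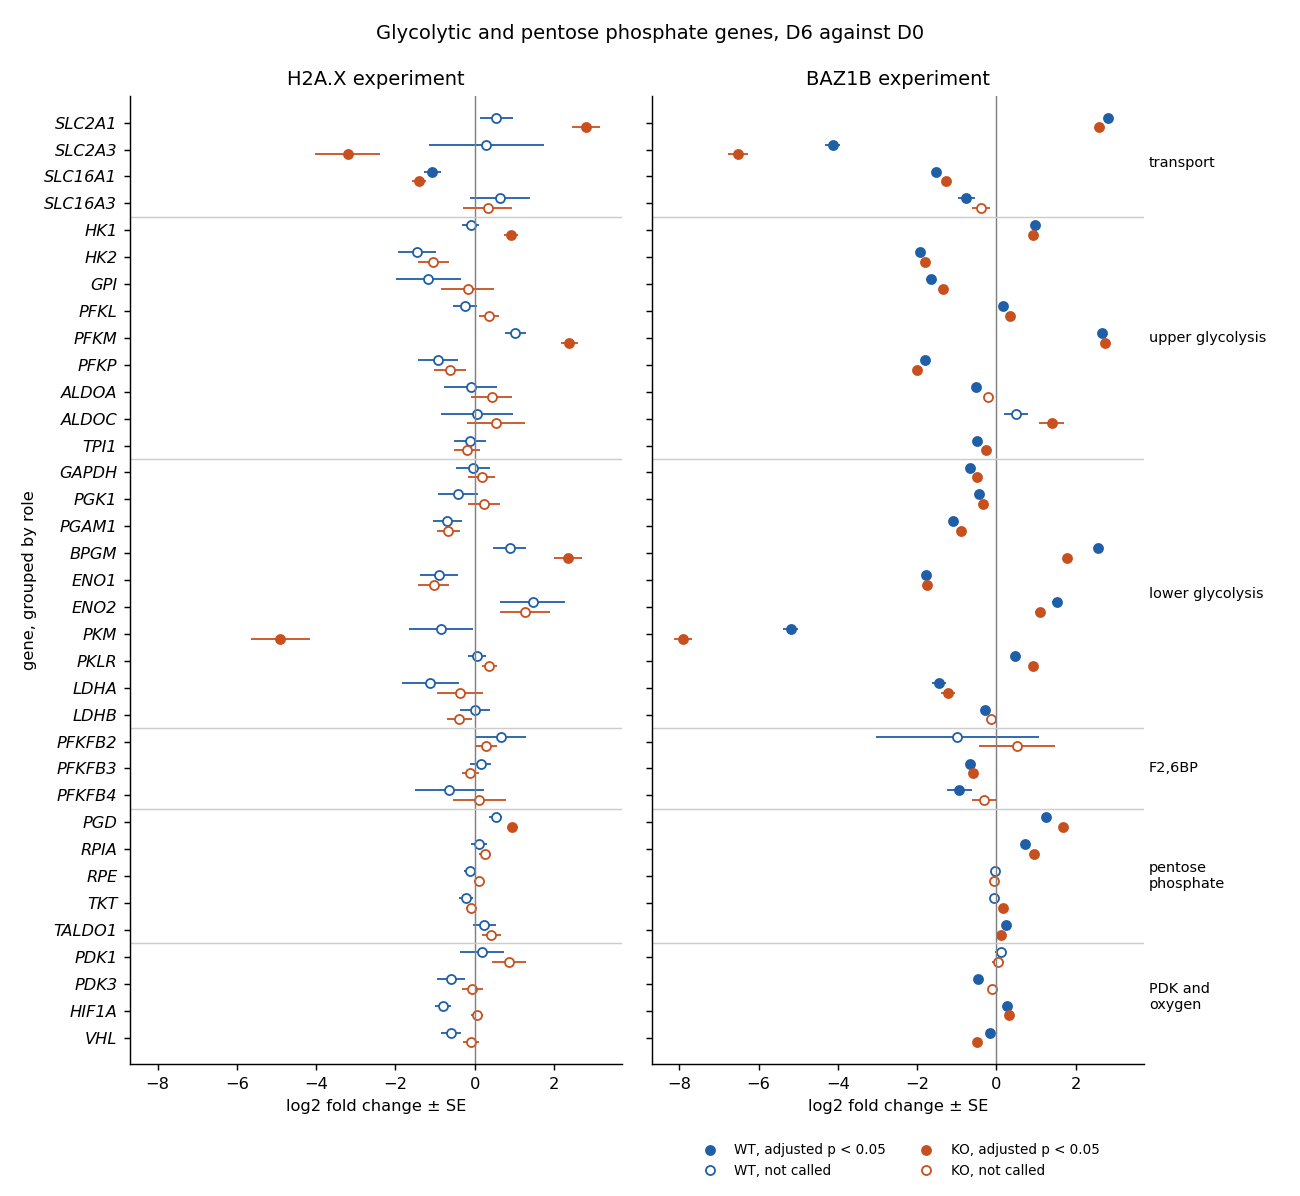
Log2 fold change from D0 to D6 (x axis, points with SE as bars) of the 35 genes (y axis, grouped by role) in WT and KO of the H2A.X experiment (left) and the BAZ1B experiment (right), with filled points for adjusted p below 0.05. In the BAZ1B experiment PKM lies farthest to the left in both genotypes, at -5.19 in WT and -7.91 in KO, and SLC2A1, PFKM and BPGM lie farthest to the right in WT.

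At D6 nearly all glucose transporter mRNA of the pair analysed came from SLC2A1, which encodes GLUT1, the glucose transporter of the red cell membrane. Its normalized counts in BAZ1B WT were 3298, 3231 and 3140 at D0 and 22460, 20770 and 25380 at D6, and in KO 3101, 2471 and 2637 at D0 and 15150, 16540 and 17940 at D6. All D6 libraries lay far above all D0 libraries, and the rise was 7.1-fold in WT (log2 2.83 ± 0.09 SE, adjusted p = 9.38e-11 in edgeR) and 6.05-fold in KO (2.60 ± 0.09, 1.57e-10). SLC2A3, encoding the high-affinity transporter GLUT3, went the other way, from 288.8, 330.9 and 315.5 to 20.09, 20.37 and 13.1 in WT and from 304.4, 219.3 and 291.1 to 2.972, 2.321 and 3.14 in KO. The last group rests on 2 to 3 reads a library, 8 in all. SLC2A3 reads per library size were 17.7 times higher at D0 than at D6 in WT (95% counting interval 13.3 to 24) and 95.5 times higher in KO (48.2 to 222). Per length of transcript, SLC2A3 made 7.19% to 8.3% of the level of both transporters in WT at D0 and at most 0.0867% at D6.

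Lactate leaves through SLC16A1 (MCT1) and SLC16A3 (MCT4). SLC16A1 fell from 19420, 18230 and 17650 to 6572, 6534 and 6173 in BAZ1B WT and from 18350, 19500 and 19870 to 8380, 7313 and 8047 in KO, with no overlap between the days (log2 -1.52 ± 0.06 and -1.28 ± 0.06, adjusted p = 2.1e-10 and 6.62e-10 in edgeR). SLC16A3 fell in WT, from 1018 to 1170 at D0 to 573.7 to 743.3 at D6 (log2 -0.76 ± 0.22), while in KO it gave -0.39 ± 0.23 (adjusted p = 0.154 in edgeR) with overlap of the days. It fell in each KO subclone, from 465, 805.6 and 658.1 to 310.1, 558.2 and 611.3, and passed with the subclone as a block (-0.40, adjusted p = 0.00745), as did ALDOA (-0.21, 0.0173) and LDHB (-0.13, 0.0355) in KO.

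At the hexokinase step, which traps glucose in the cell, HK1 rose and HK2 fell. HK2 had normalized counts of 4168, 4248 and 3989 at D0 and 1293, 1089 and 864.5 at D6 in BAZ1B WT, a 3.83-fold fall (log2 -1.94 ± 0.10, adjusted p = 3.05e-09 in edgeR). HK1 went from 26510 to 27380 up to 52650 to 53310. The share of HK2 in the hexokinase level, per length and within each library, moved from 8.79% to 9.04% at D0 to 1.04% to 1.53% at D6 in WT, and from 8.89% to 9.73% to 1.36% to 1.64% in KO. HK1 thus made most of the hexokinase mRNA of the pair on either day.

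Phosphofructokinase, the committing step, is built from the subunits PFKL, PFKM and PFKP, and PFKM (muscle type) took the place of PFKP (platelet type) beside a steadier PFKL (liver type). PFKM counts in WT rose from 702.9, 714.3 and 694.5 to 4377, 4427 and 4712, and in KO from 576.3, 534.5 and 535.1 to 3122, 3902 and 3947. PFKP fell from 3154, 3134 and 3279 to 1100, 837.3 and 804 in WT and from 2913, 2721 and 2732 to 734.2, 662.7 and 699.2 in KO. Neither gene overlapped between the days, and the log2 changes in WT were 2.68 ± 0.08 for PFKM and -1.80 ± 0.09 for PFKP (adjusted p = 3.78e-11 and 2.31e-09 in edgeR). Per length, the PFKM share went from 5.41% to 5.67% at D0 to 28.4% to 32.0% at D6 in WT and from 4.53% to 4.66% to 22.5% to 25.8% in KO. The PFKP share went from 29.3% to 30.1% down to 6.42% to 8.4% in WT and from 27.2% to 27.7% down to 5.09% to 6.22% in KO. PFKL made between 61.6% and 71.3% of the level in every library of the experiment, and the level of the 3 genes together was 109 ± 1.21 CPM per kb at D0 and 127 ± 5.08 at D6 in WT (SD, n = 3).

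The enzymes between these regulated steps mostly fell. GPI, TPI1, GAPDH, PGK1, PGAM1 and ENO1 were all lower at D6 in both genotypes, with log2 changes in WT from -0.45 ± 0.08 (PGK1) to -1.77 ± 0.11 (ENO1). GAPDH, with the highest level per length on both days in WT, went from 1974 ± 63.14 to 1239 ± 133.1 CPM per kb (SD, n = 3). ENO2, the enolase named for neurons, rose from 254.1, 234.4 and 228.3 to 710.9, 602 and 766.8 in WT (log2 1.54 ± 0.13, adjusted p = 2.26e-07 in edgeR), yet per length it remained a minor form, at 2.77% to 3.76% of enolase at D6. ALDOA fell in WT, with a log2 change of -0.50 ± 0.10. Its counts were 432.2 to 789.1 over the 12 libraries, and in the annotation it overlaps another gene on the same strand. The same holds for other members, among them SLC2A1, GPI, PFKM, ALDOC, PGK1, ENO2, LDHA and LDHB. How overlapping reads were assigned is not given in the sources used here. ALDOC rose in KO (1.40 ± 0.31) and gave 0.49 ± 0.31 in WT, where the days overlapped. PGAM1 has 13 named pseudogenes, on which the tables held 0.778% as many reads as on the gene.

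BPGM, which makes the bisphosphoglycerate that tunes oxygen release, rose steeply. Its counts in WT were 532.9, 541.9 and 470.7 at D0 and 2909, 2853 and 3340 at D6, a 5.89-fold rise (log2 2.56 ± 0.07, adjusted p = 3.07e-11 in edgeR). In KO they were 537.9, 538.3 and 559.7 at D0 and 1801, 1841 and 1994 at D6, a 3.45-fold rise (1.78 ± 0.07, 4.75e-10). The KO libraries thus stood with WT at D0 and below every WT library at D6.

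Pyruvate kinase changed over from PKM (chr15:72199029-72231819, minus strand) to PKLR (chr1:155289293-155301438, minus strand, in GENCODE v44 on GRCh38). PKM counts in BAZ1B WT fell from 30300, 28080 and 27480 to 930.8, 719.7 and 706.3, and in KO from 22700, 31160 and 32050 to 172.4, 92.84 and 87.92. The fall was 36.5-fold in WT (log2 -5.19 ± 0.19, adjusted p = 1.71e-10 in edgeR) and 240.0-fold in KO (-7.91 ± 0.23, 2.36e-11), and the KO libraries at D6 lay below all WT libraries of that day. PKLR, already abundant at D0, rose from 20710, 19940 and 19820 to 28650, 26850 and 28540 in WT and from 21910, 18660 and 19830 to 38160, 39050 and 38430 in KO. These rises were 1.39-fold (0.47 ± 0.05, 3.12e-06) and 1.91-fold (0.94 ± 0.05, 5.75e-09). PKM made 64.7% to 65.9% of the pyruvate kinase level per length in WT at D0 and 3.17% to 4.12% at D6, and in KO 57.8% to 68.8% and 0.302% to 0.594%. The summed level fell from 507 ± 21.4 to 254 ± 9.61 CPM per kb in WT and from 507 ± 47 to 338 ± 3.62 in KO (SD, n = 3). Counts per gene do not separate the M1 and M2 forms of PKM, or the liver and red cell forms of PKLR, and reads of PKLR and of HCN3 on the other strand could mix if strand was not kept.

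Mast cell and eosinophil genes fell over the same days. Their summed normalized count (CPA3, HDC, MS4A2, TPSAB1, TPSB2, PRG2, CLC and EPX) was 17550 to 19090 in BAZ1B WT and 17030 to 23280 in KO at D0, and 1127 to 1532 and 459.5 to 1442 at D6, and all 6 that could be tested fell in both genotypes. At D6, 4 of the 8 had at most 3 reads in every WT library and 5 in every KO library. The part of these cells or genes in the fall of PKM, SLC2A3 and the other members was not tested.

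**Figure D2:**
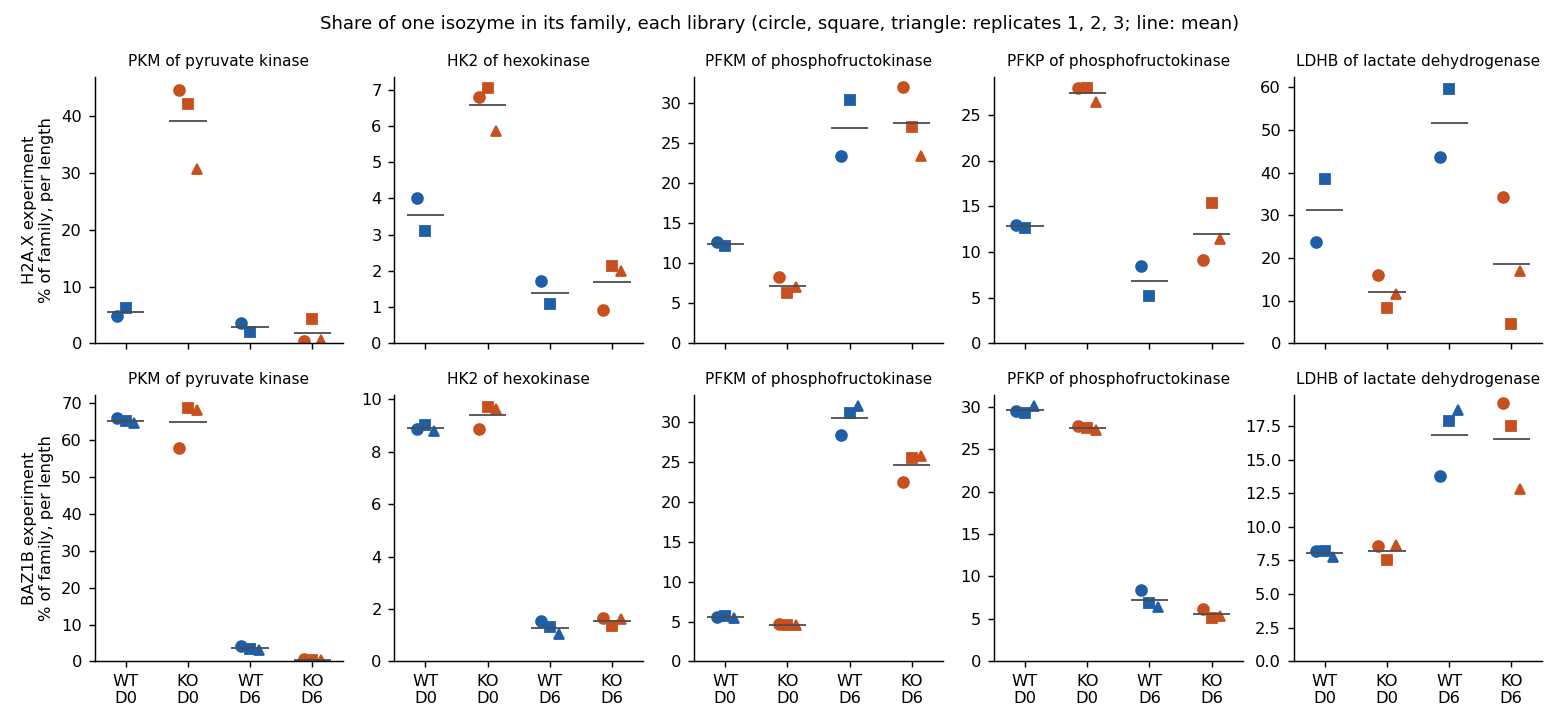
Share of each isozyme in its family's level per transcript length (y axis, percent, starting at 0) in every library (points) of WT and KO at D0 and D6, for the H2A.X experiment (top) and the BAZ1B experiment (bottom), with lines at the mean. In BAZ1B WT the PKM share drops from 64.7% to 65.9% down to 3.17% to 4.12%, while that of PFKM climbs from 5.41% to 5.67% up to 28.4% to 32.0%.

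For lactate dehydrogenase, which turns pyruvate into lactate, LDHA fell from 38370, 37740 and 36760 to 17680, 12020 and 11700 in WT and from 36460, 37750 and 36730 to 12850, 13740 and 21310 in KO (log2 -1.45 ± 0.18 and -1.21 ± 0.18, adjusted p = 9.48e-06 and 4.63e-05 in edgeR). LDHB changed less, with -0.28 ± 0.06 in WT and -0.13 ± 0.06 in KO (adjusted p = 0.000914 and 0.071). Its share per length was 7.74% to 8.23% of the pair at D0 and 13.8% to 18.7% at D6 in WT. WT replicate 1 and KO replicate 3 stood above their group in LDHA at D6, and did so too in GPI, PFKFB4, ALDOC and PDK1. In BNIP3, a hypoxia target outside the list, the same libraries gave 2620 against 1523 and 1804, and 2965 against 1550 and 1651. What moved these genes together was not tested.

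Among the bifunctional PFKFB enzymes, which set the activator of phosphofructokinase, PFKFB3 fell in both genotypes (log2 -0.67 ± 0.08 in WT and -0.58 ± 0.08 in KO). PFKFB4 fell in WT (-0.93 ± 0.32, adjusted p = 0.0185 in edgeR), a call lost when some libraries were left out (highest adjusted p = 0.0881), and gave -0.31 ± 0.31 in KO. PFKFB2, at few reads in WT, gave -0.98 ± 2.05 in WT and 0.52 ± 0.95 in KO, and neither passed.

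Of the 5 pentose phosphate genes analysed, 3 rose in WT (60.0% called beside 68.9% of all genes) and 4 in KO (80.0% beside 67.7%), and none was called lower. PGD, which makes NADPH in the oxidative branch, had counts of 9175, 9236 and 8795 at D0 and 22410, 21010 and 21520 at D6 in WT, and of 8767, 9210 and 8957 and then 25290, 30740 and 31010 in KO. All D6 libraries exceeded all D0 libraries, 2.39-fold in WT (log2 1.26 ± 0.07, adjusted p = 2.91e-09 in edgeR) and 3.23-fold in KO (1.69 ± 0.07, 3.02e-10). RPIA, the isomerase that makes ribose phosphate, rose by 0.73 ± 0.05 and 0.95 ± 0.05 on the log2 scale. TALDO1 of the nonoxidative branch rose by 0.25 ± 0.04 in WT and 0.13 ± 0.04 in KO, and in KO the call was lost after a correction for transcript length and GC content (0.03, adjusted p = 0.57). TKT rose in KO (0.17 ± 0.04) and gave -0.05 ± 0.04 in WT, and RPE gave -0.04 ± 0.04 and -0.05 ± 0.04, with overlap of the days, though after the length and GC correction RPE was lower at D6 in both (-0.20 and -0.19, adjusted p = 0.00117 and 0.00201 in edgeR).

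PDK1 and PDK3 encode kinases that shut pyruvate dehydrogenase, and HIF1A and VHL the oxygen-regulated factor and the protein that marks it for degradation. PDK1 overlapped between the days in both genotypes (0.12 ± 0.15 and 0.04 ± 0.15). PDK3 fell in WT, from 1148 to 1208 down to 808.1 to 907.3 (log2 -0.47 ± 0.07), and gave -0.11 ± 0.07 in KO. HIF1A rose by 0.28 ± 0.06 in WT and 0.31 ± 0.06 in KO. VHL counts were 2288, 2275 and 2538 and then 2159, 2030 and 2147 in WT, and 2717, 2546 and 2667 and then 1962, 1873 and 1825 in KO. VHL fell by 0.16 ± 0.05 and 0.49 ± 0.05 on the log2 scale, and the WT call was lost after the length and GC correction (adjusted p = 0.103).

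**Figure D3:**
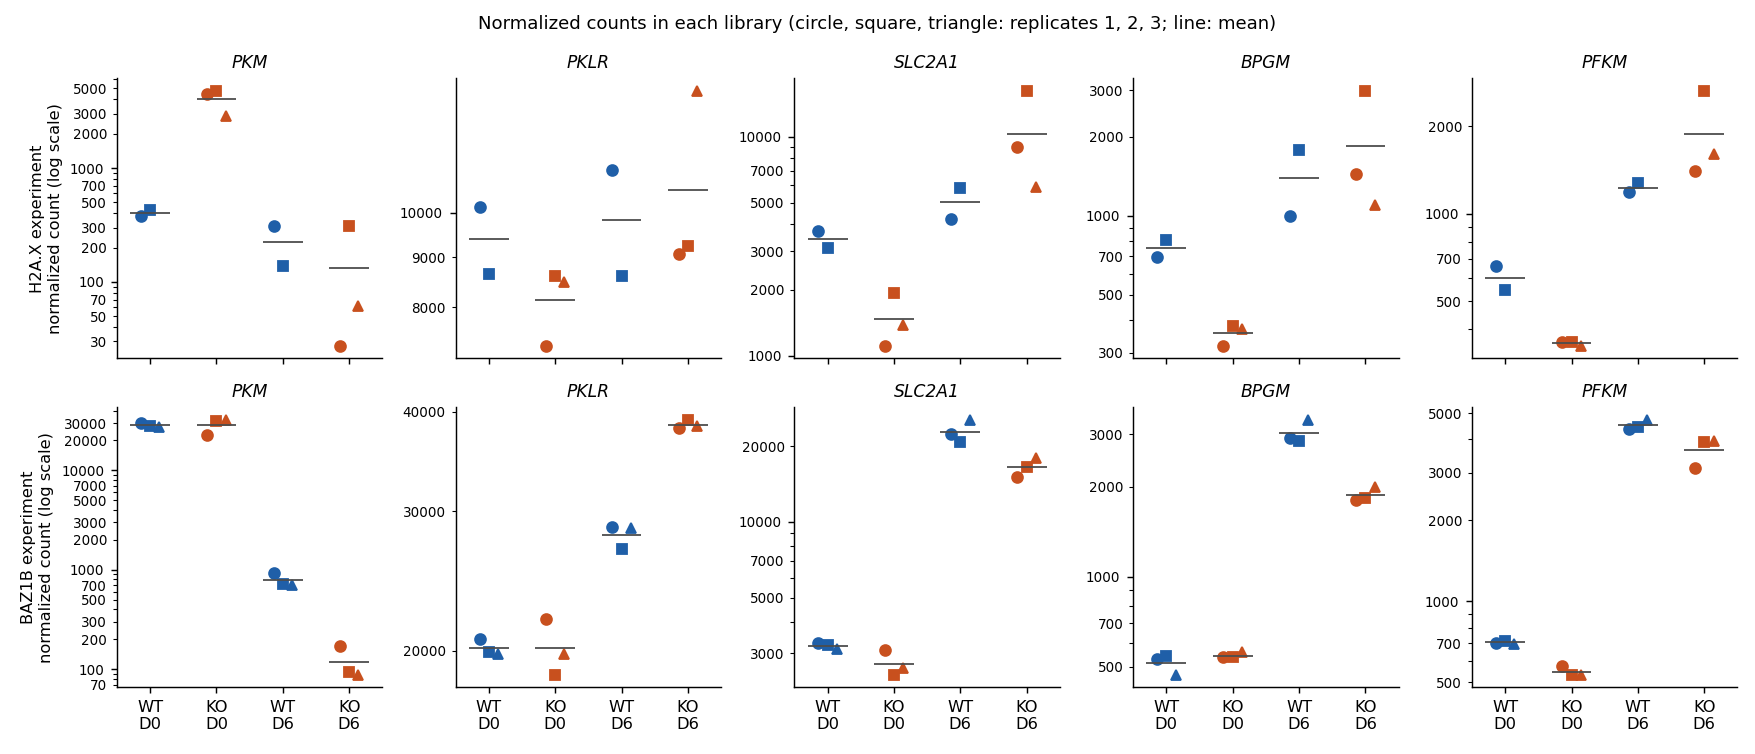
Normalized counts (log y axis) of PKM, PKLR, SLC2A1, BPGM and PFKM in every library (points, shaped by replicate number, with the mean as a line) of WT and KO at D0 and D6, for the H2A.X experiment (top) and the BAZ1B experiment (bottom). PKM at D6 lies at 706.3 to 930.8 in BAZ1B WT and at 87.92 to 172.4 in BAZ1B KO, and in the H2A.X experiment KO at D0 lies at 2844 to 4732 above WT at 382.1 and 430.7.

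Maturation looked different in the H2A.X experiment. In WT, 1 of 35 genes passed from D0 to D6, SLC16A1, which is 2.86% beside 2.0% of all 13236 genes tested (0.839% higher and 1.16% lower). Of the other 34, 5 had an unadjusted p below 0.05, and DESeq2 called 5 members in all. The WT libraries of this experiment had little PKM on either day: PKM counts were 382.1 and 430.7 at D0 and 308.4 and 137.8 at D6, and PKLR counts 10130 and 8648 and then 11060 and 8602. The PKM share per length was 4.75% to 6.18% at D0 and 2.07% to 3.56% at D6. PFKM stood at 12.1% to 12.6% of phosphofructokinase at D0 and HK2 at 3.11% to 4.0% of hexokinase. These shares are formed within a library, so they can be set beside those of the BAZ1B experiment, but the tables were not normalized together and the difference between the experiments was not tested. SLC16A1 had 4793 and 4549 at D0 and 2657 and 1804 at D6 (log2 -1.07 ± 0.22, adjusted p = 0.0397 in edgeR). That call was lost when any of 6 libraries was left out, and adding the subclone as a block, as D0 and D6 libraries of the same number deviated together, also called HK2, PFKM and HIF1A.

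In H2A.X KO, 8 genes passed from D0 to D6, 5 higher and 3 lower, which is 22.9% beside 30.9% of all genes (14.8% higher and 16.1% lower), with a median of 0.12 over the members and 0.02 over all. SLC2A1, HK1, PFKM, BPGM and PGD were higher, and SLC2A3, SLC16A1 and PKM lower. Each of the 8 was called in the same direction in both genotypes of the BAZ1B experiment. SLC2A3 passed the filter on low counts here only through the KO libraries at D0. Its fall is therefore a description, though it is among the 8. PKM fell from 4474, 4732 and 2844 to 27.55, 311.7 and 61.78, a 30.0-fold fall without overlap (log2 -4.91 ± 0.75, adjusted p = 0.00119 in edgeR). SLC2A1 rose from 1113, 1928 and 1387 to 8952, 16130 and 5917 (2.81 ± 0.36, 0.000452). BPGM rose from 319.6, 379.4 and 368.4 to 1435, 2979 and 1101 (2.37 ± 0.35, 0.0011). These 3 genes had no D6 library within the range of D0. PFKM rose from 360.2, 362.3 and 351.1 to 1403, 2640 and 1605 (2.40 ± 0.23, 0.000136), PGD from 4206 to 5004 up to 7982 to 9914 (0.95 ± 0.13), and SLC16A1 fell from 7517 to 8109 down to 2584 to 3633 (-1.39 ± 0.18). SLC2A3 rests on 12 reads at D6 (2 to 7 a library) and 127 at D0, a ratio of 9.44 (95% counting interval 5.22 to 18.7), and its call was lost when a library was left out (highest adjusted p = 0.063). With the subclone as a block 13 genes passed, adding HK2, PFKP, PGAM1, ENO1 and PDK1, and without KO replicate 2 at D6 the count was also 13. The mast cell and eosinophil sum fell from 3679 to 7368 at D0 to 54.17 to 236.5 at D6, with 5 of its 8 genes at no more than 3 reads in each D6 library. Its part in the fall of PKM was not tested.

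That KO library, replicate 2 at D6, stood apart from the other 2 in many glycolytic genes. Its GPI count was 16130 beside 1214 and 4776, its LDHA count 27190 beside 3095 and 11790, and its PGK1 count 19540 beside 4656 and 7607. It was likewise the highest of the group in PFKFB4 (1342 beside 127.6 and 226.9), ALDOC (4014 beside 259.9 and 1145) and PDK1 (2321 beside 632.7 and 752). Outside the list, the hypoxia targets BNIP3 (7914 beside 717.2 and 1823) and P4HA1 (3000 beside 373.7 and 844.7) were highest in it as well. What set this library apart was not tested. Without this library, PFKFB4 in KO turned from a log2 change of 0.12 to -1.56 between the days (adjusted p = 0.00669 in edgeR).

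**Figure D4:**
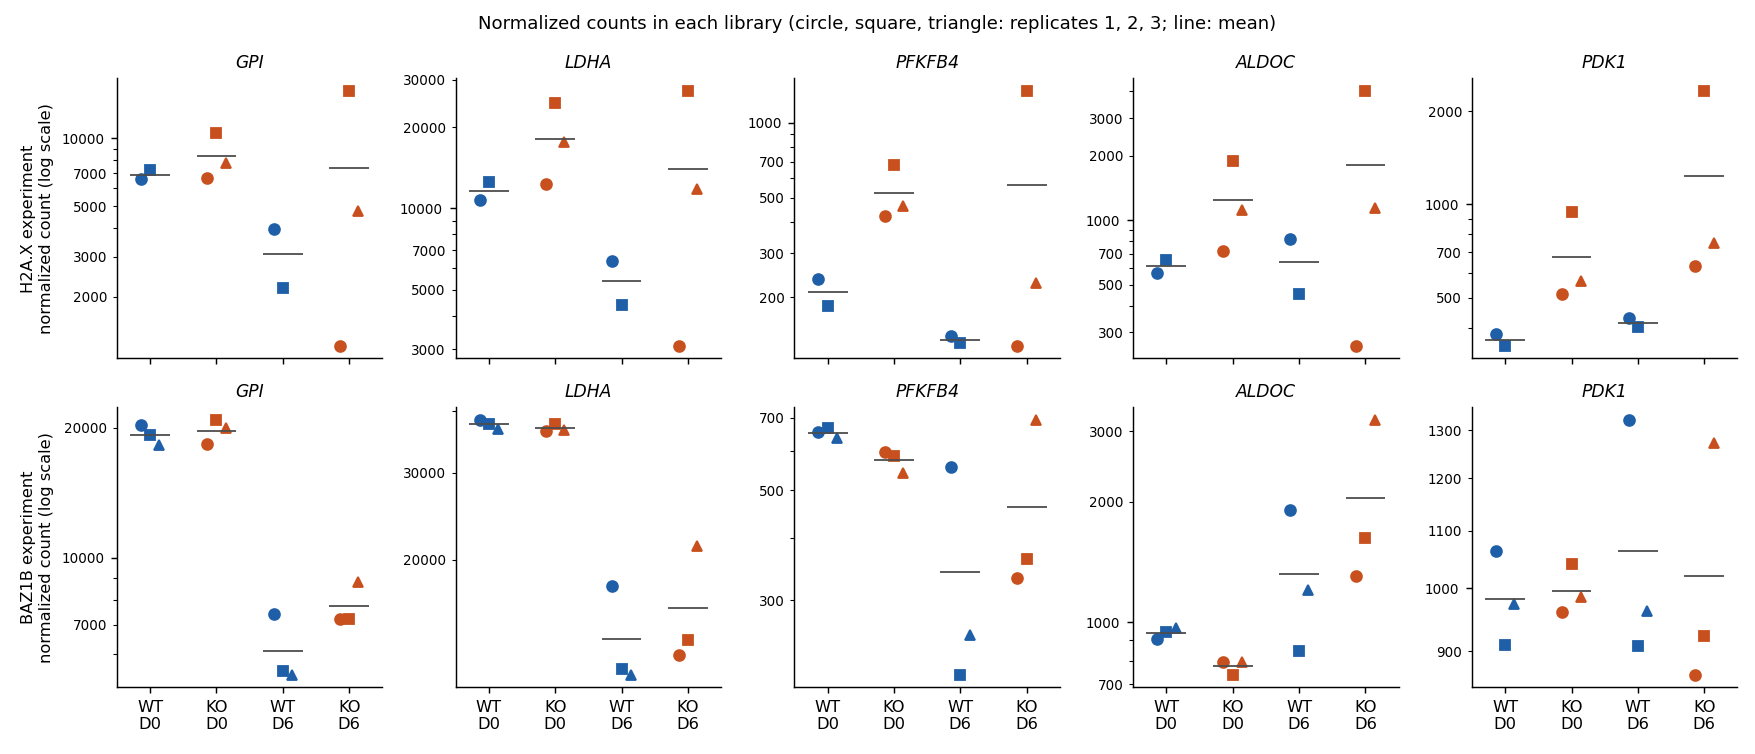
Normalized counts (log y axis) of GPI, LDHA, PFKFB4, ALDOC and PDK1 in every library (points, shaped by replicate number, with the mean as a line) of WT and KO at D0 and D6, for the H2A.X experiment (top) and the BAZ1B experiment (bottom). H2A.X KO replicate 2 at D6 is the top point of its group in all 5 genes, with LDHA at 27190 against 3095 and 11790.

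Between BAZ1B KO and WT at D0, 1 of 35 members passed, PFKM, which is 2.86% beside 3.88% of all genes (1.25% higher and 2.64% lower), while 9 had an unadjusted p below 0.05. PFKM counts were 576.3, 534.5 and 535.1 in KO and 702.9, 714.3 and 694.5 in WT, lower in every KO library by 0.36 ± 0.08 on the log2 scale (adjusted p = 0.0328 in edgeR). This call was lost when some libraries were left out (highest adjusted p = 0.139). Larger differences that did not pass were those of SLC16A3, with 465, 805.6 and 658.1 in KO and 1030, 1018 and 1170 in WT (log2 -0.74 ± 0.22, adjusted p = 0.0988 in edgeR), and of PFKFB2. PFKFB2 had 442 reads over the KO libraries and 27 over WT, a ratio of 18.4 per library size (95% counting interval 12.5 to 28.3), but none of its KO reads came from replicate 1.

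At D6, 16 of the 35 genes differed between BAZ1B KO and WT, 8 higher and 8 lower, which is 45.7% beside 12.8% of all genes (6.87% higher and 5.97% lower), with a median log2 difference of 0.05 over the members and -0.0037 over all. Most of the differences were small, with PKM, SLC2A3 and PFKFB2 as the exceptions. PKM was 6.59-fold lower in KO, at 172.4, 92.84 and 87.92 beside 930.8, 719.7 and 706.3 in WT (log2 -2.72 ± 0.22, adjusted p = 1.02e-05 in edgeR). SLC2A3 had 2 to 3 reads a library in KO and 13 to 18 in WT, so that WT was 6.24 times higher per library size (95% counting interval 2.93 to 15.3), and the fitted difference was -2.60 ± 0.34 (adjusted p = 0.000357). BPGM was lower (-0.69 ± 0.07, 4.42e-05), and so was SLC2A1 (-0.47 ± 0.09, 0.0037), in each case with every KO library below every WT library. HK1, PFKM, PFKP and TALDO1 were lower by 0.15 to 0.39 on the log2 scale.

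PKLR stood highest in the same libraries. Its counts were 38160, 39050 and 38430 in KO and 28650, 26850 and 28540 in WT (log2 0.46 ± 0.05, adjusted p = 0.000109 in edgeR). PGD, at 25290, 30740 and 31010 beside 22410, 21010 and 21520, was higher by 0.42 ± 0.06 (0.00102), PDK3 by 0.50 ± 0.07 (1162 to 1286 beside 808.1 to 907.3) and ALDOA by 0.50 ± 0.10. SLC16A1, PFKL and TPI1 were higher by 0.30, 0.17 and 0.24. PFKFB2, the PFKFB form known from heart, was nearly silent in WT, with 2 to 6 reads a library, and had normalized counts of 23.78, 402.7 and 202 in KO (fitted log2 5.67 ± 1.47). It passed the filter on low counts through the KO libraries, so this is a description, though the gene is among the 16 counted. At D0 its KO counts were 0, 281.4 and 153 beside 3.656, 12.06 and 7.933 in WT (4.17 ± 1.28, adjusted p = 0.106), so that KO replicate 1 was lowest on both days. YOD1 overlaps PFKFB2 on the other strand, and their reads cannot be told apart if strand was not kept. Of the 16 calls, 9 held with each library left out in turn (SLC2A1, SLC2A3, SLC16A1, ALDOA, BPGM, PKM, PKLR, PGD and PDK3), and without WT replicate 3 at D6 the count was 10.

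The BAZ1B KO effect at D6 less that at D0, which is the same as the difference of maturation between the genotypes, passed for 6 genes, or 17.1% beside 2.47% of all genes (1.58% higher and 0.893% lower). PKLR (0.46 ± 0.07, adjusted p = 0.00658 in edgeR) and PGD (0.44 ± 0.09, 0.0286) were higher in KO at D6 relative to D0. PKM (-2.72 ± 0.27, 0.000468), BPGM (-0.77 ± 0.10, 0.0028), SLC2A3 (-2.40 ± 0.38, 0.00658) and VHL (-0.32 ± 0.07, 0.0381) were lower. So the rise of PKLR and PGD and the fall of PKM, SLC2A3 and VHL were larger in KO, and the rise of BPGM smaller. The other 29 genes did not pass, 8 of them with an unadjusted p below 0.05. With the subclone as a block TKT (adjusted p = 0.0469) and PDK3 (0.026) passed as well. None of the 7 erythroid markers except SLC4A1 passed in this difference (log2 2.11 ± 0.32). Markers of other cells were low at D6 in BAZ1B KO. The megakaryocyte sum, nearly all ITGA2B, was 53.38 to 179.3 in KO and 312.5 to 389.9 in WT at D6 (ITGA2B -1.59 ± 0.33, adjusted p = 0.0066 in edgeR), and 1291 to 2542 and 2718 to 2836 at D0. The mast cell and eosinophil sum at D6 was 459.5 to 1442 in KO and 1127 to 1532 in WT, with none of 6 genes called, and the myeloid sum 1.047 to 9.284 and 7.921 to 14.11. Their part in the differences of PKM, SLC2A3 and BPGM was not tested.

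**Figure D5:**
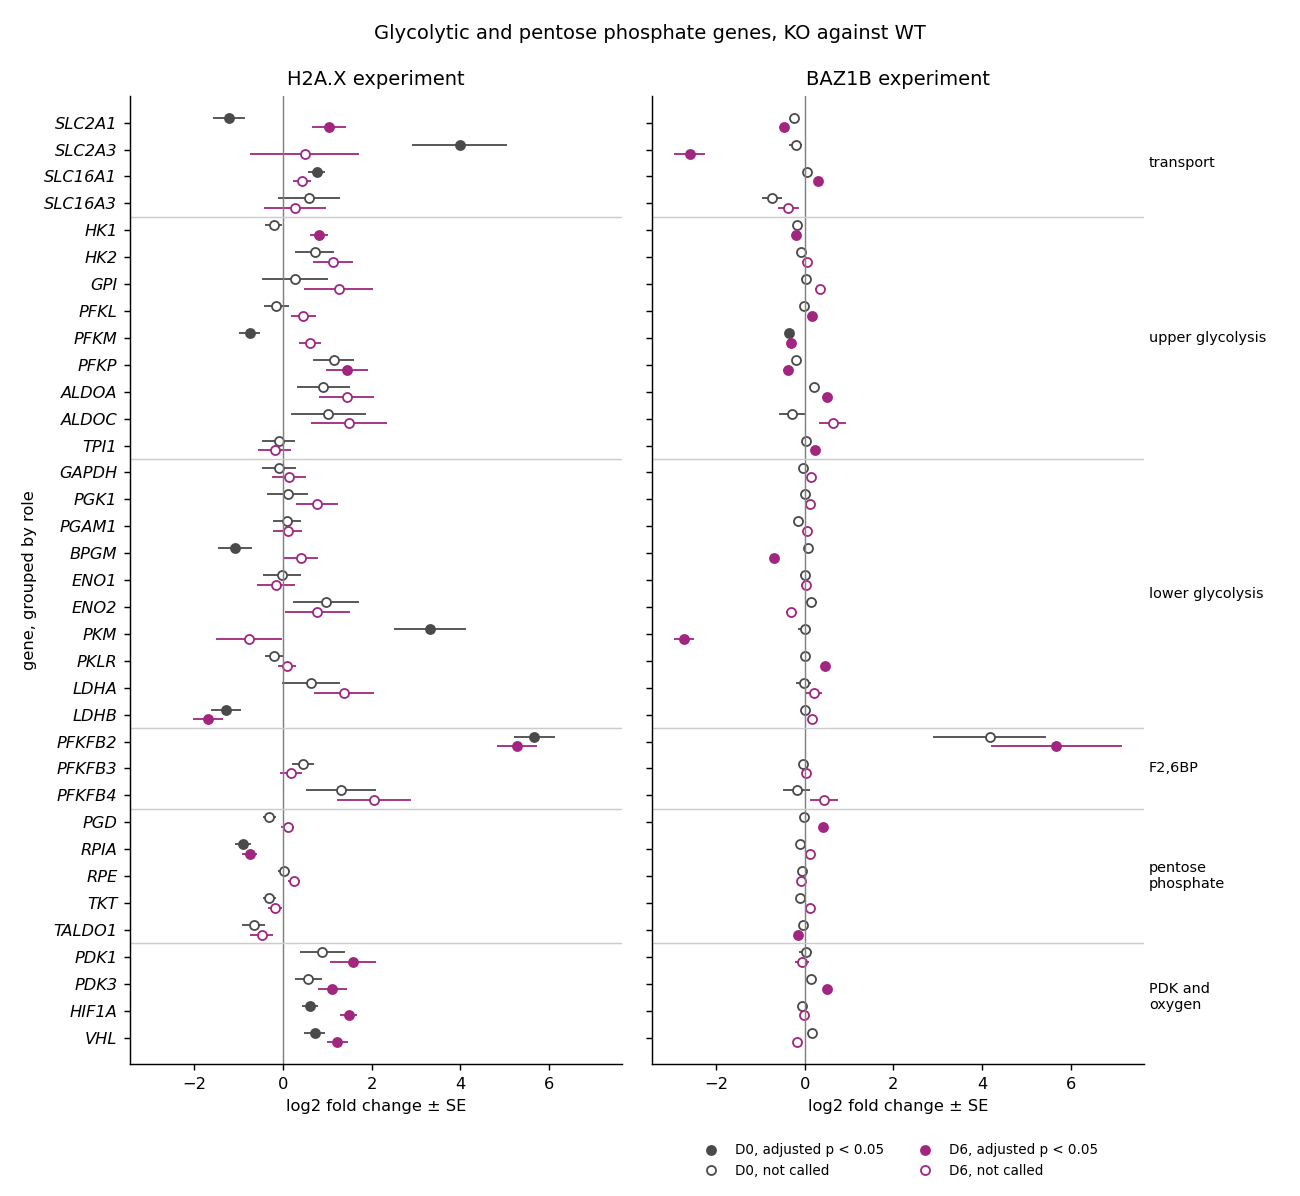
Log2 fold change of KO against WT (x axis, points with SE as bars) of the 35 genes (y axis, grouped by role) at D0 and D6 in the H2A.X experiment (left) and the BAZ1B experiment (right), with filled points for adjusted p below 0.05. PFKFB2 lies far to the right in both experiments (5.67 and 5.28 in H2A.X KO at D0 and D6), and PKM lies at 3.31 in H2A.X KO at D0 and at -2.72 in BAZ1B KO at D6.

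Differences between KO and WT were larger and more scattered in the H2A.X experiment. Those at D0 cannot be told apart from whatever the word Redo marks in the column names. At D0, 11 of 35 genes differed between KO and WT, 6 higher and 5 lower, which is 31.4% beside 35.1% of all genes (18.4% higher and 16.7% lower), with a median of 0.27 over the members and 0.01 over all. At D6, 10 differed, 8 higher and 2 lower, which is 28.6% beside 43.1% (22.2% higher and 20.9% lower), with medians of 0.49 and -0.01. These counts include PFKFB2 on both days and SLC2A3 at D0, which passed the filter on low counts only through KO libraries. Without the filter on low counts 20 members were called on each day. Across 12017 genes, the log2 differences of KO and WT rose with transcript length (Spearman rho 0.544 at D0 and 0.601 at D6), which was not so in the BAZ1B experiment (-0.0301 and 0.0524), and a correction for length and GC content gave 5 calls at D0 and 9 at D6. It ended the calls of SLC16A1, PFKM, BPGM, LDHB, HIF1A and VHL at D0 and of SLC2A1, RPIA and PDK1 at D6.

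PKM was the largest difference among well-expressed members at D0. KO libraries had 4474, 4732 and 2844 beside 382.1 and 430.7 in WT, a 9.88-fold difference without overlap (log2 3.31 ± 0.81, adjusted p = 0.0139 in edgeR), while at D6 the groups overlapped (-0.76 ± 0.75, 0.427). The PKM share of pyruvate kinase per length was 30.7% to 44.7% in KO and 4.75% to 6.18% in WT at D0. In BAZ1B WT at D0 this share was 64.7% to 65.9%, so the H2A.X WT libraries lay farther from it than the KO libraries did. The experiments were not tested against each other. Mast cell and eosinophil genes summed to 3679 to 7368 in KO and 1821 to 2456 in WT, with 1 and 4 of the 8 genes at no more than 3 reads in each library of the group, and 6 of 7 erythroid markers were lower in KO. Whether these had a part in the PKM difference was not tested.

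SLC2A1, BPGM, PFKM and RPIA, which rose in BAZ1B maturation, were lower in H2A.X KO at D0. SLC2A1 had 1113, 1928 and 1387 beside 3728 and 3116 in WT (log2 -1.21 ± 0.37). BPGM had 319.6, 379.4 and 368.4 beside 697.5 and 807.6 (-1.08 ± 0.38). PFKM had 360.2, 362.3 and 351.1 beside 659.1 and 545.6 (-0.75 ± 0.24), and the values of RPIA are given below. SLC16A1, at 7517, 8109 and 8067 beside 4793 and 4549, was higher (0.76 ± 0.20), as was SLC2A3, with 127 reads over the KO libraries and 4 over WT, a ratio of 16.3 (95% counting interval 6.2 to 60.6). SLC2A3 passed the filter only through KO libraries, and its value is a description. The adjusted p of SLC2A1, BPGM, PFKM and SLC16A1 in edgeR ran from 0.0171 for SLC16A1 to 0.0471 for BPGM. By D6 the order had turned for SLC2A1, at 8952, 16130 and 5917 in KO and 4197 and 5834 in WT (1.04 ± 0.38, adjusted p = 0.0493), and HK1 was higher too (0.81 ± 0.21, 0.0114). PFKM (0.62 ± 0.24, 0.063) and BPGM (0.40 ± 0.38, 0.404) did not pass at D6. The length and GC correction ended the calls of SLC16A1, PFKM and BPGM at D0 and of SLC2A1 at D6. Every call named in this paragraph was lost when some library was left out. The difference of the KO effects of both days passed for SLC2A1 in DESeq2 and with the subclone as a block, but not in the main edgeR fit.

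LDHB, the heart-type subunit, and RPIA were lower in H2A.X KO on both days. LDHB counts were 1372, 1304 and 1333 beside 1939 and 4592 at D0, and 934.8, 735.6 and 1402 beside 2852 and 3756 at D6 (log2 -1.29 ± 0.34 and -1.69 ± 0.34, adjusted p = 0.0173 and 0.00514 in edgeR). RPIA counts were 820.1, 929.7 and 875.8 beside 1403 and 1874 at D0 and 862.2, 1180 and 1105 beside 1777 and 1754 at D6 (-0.90 ± 0.18 and -0.75 ± 0.18). Neither gene overlapped between the genotypes. The length and GC correction ended the LDHB call at D0 and the RPIA call at D6. No call of either gene held with each library left out in turn. The 2 WT libraries differed widely in LDHB at D0, and without the higher, replicate 2, its difference there was -0.54.

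PFKFB2 had the largest fitted difference of all members. It passed the filter on low counts only through the KO libraries, where it is high, so its values are a description. WT libraries had 5.055 and 2.393 at D0 and 7.996 and 3.579 at D6, against 234.2, 154.5 and 211.3 and then 312.2, 209.1 and 211.4 in KO. The KO to WT ratio of reads per library size was 52.2 at D0 (95% counting interval 25.2 to 130) and 39.1 at D6 (20.5 to 85.8), with fitted log2 differences of 5.67 ± 0.46 and 5.28 ± 0.45. Its share of the PFKFB level per length was 5.7% to 27.7% in KO and at most 1.08% in WT. In the BAZ1B experiment at D0, PFKFB2 stood above all WT libraries in 2 of 3 KO libraries. KO replicate 1 had no reads of it there, and the difference did not pass. The gene passed the filter through KO libraries there too, so this is also a description.

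All 4 genes around pyruvate dehydrogenase and oxygen sensing were higher in H2A.X KO at D6, where 43.1% of all genes were called. HIF1A counts were 1296, 1372 and 1180 beside 502.6 and 411.6 (log2 1.49 ± 0.19, adjusted p = 0.00267 in edgeR), and VHL counts 956.8, 1270 and 887.2 beside 524.3 and 357.9 (1.23 ± 0.24, 0.00487). PDK3 had 611.6, 1069 and 507.8 beside 410.1 and 259.5 (1.12 ± 0.32, 0.0194). PDK1, with 632.7, 2321 and 752 beside 429.5 and 400.8, differed by 1.57 ± 0.52 (0.0326). Every KO library exceeded both WT libraries in these genes. The mast cell and eosinophil sum at D6 was 54.17 to 236.5 in KO and 2541 to 4069 in WT, with 2 of 5 genes called lower, and in each group 5 of the 8 listed genes had no more than 3 reads in every library. Its part in these differences was not tested. PDK1 has a transcript of 14072 bases, and after the correction for length and GC content its difference was 0.45 (adjusted p = 0.537). HIF1A (0.62 ± 0.18) and VHL (0.72 ± 0.24) were higher at D0 as well. PFKP was higher at D6, with 343.4, 1276 and 668 beside 366.7 and 186.1 (1.45 ± 0.48, 0.0323), though KO replicate 1 fell within the WT range.

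Few of the H2A.X calls survived the loss of a library. With each library left out in turn, 10 of 11 calls at D0 and 8 of 10 at D6 were lost at least in 1 case. Those that held were HIF1A at D6 and PFKFB2 on both days. PFKFB2 passed the filter on low counts only through KO libraries, so its calls remain a description. Without WT replicate 2 of the same day, 1 member was called at D0 and 2 at D6, and without any single KO library at D0 it was 6. Without KO replicate 2 at D6, ENO2 and SLC16A3 turned from 0.78 and 0.27 to -0.80 and -1.10 in KO against WT at D6 (adjusted p = 0.0326 and 0.0446 in edgeR). The H2A.X KO effect at D6 less that at D0 passed for none of the 35 genes in edgeR, beside 1.34% of all genes (0.302% higher and 1.04% lower), with 6 at an unadjusted p below 0.05. DESeq2 called 4 (SLC2A1, HK1, PFKM and HIF1A), and edgeR with the subclone as a block also 4 (SLC2A1, HK1 and PFKM higher and PKM lower).

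Of 11 other genes that lead pyruvate into the mitochondria, 4 rose and 3 fell in BAZ1B WT (63.6% called beside 68.9% of all genes), 4 rose and 4 fell in BAZ1B KO (72.7% beside 67.7%), and 2 rose and 2 fell in H2A.X KO (36.4% beside 30.9%). These shares lie near those of all genes. MPC2, a subunit of the mitochondrial pyruvate carrier, rose by 2.14 ± 0.08 in BAZ1B WT, 2.30 ± 0.08 in BAZ1B KO and 1.91 ± 0.22 in H2A.X KO on the log2 scale. PDP1, the phosphatase that reopens pyruvate dehydrogenase, fell by 1.596 ± 0.10, 1.54 ± 0.10 and 1.18 ± 0.14, and by 1.61 ± 0.18 in H2A.X WT. PDK2, a further kinase of the complex, rose by 1.08 ± 0.12 and 0.90 ± 0.12 in BAZ1B WT and KO and by 1.02 ± 0.27 in H2A.X KO. PDK4 was lower in BAZ1B KO than in WT on both days (-1.74 ± 0.41 and -3.96 ± 0.56).

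Of 27 other isozymes and neighboring enzymes, 18 could be tested in the BAZ1B experiment, of which 7 rose and 9 fell in WT (88.9% called beside 68.9% of all genes) and 7 rose and 8 fell in KO (83.3% beside 67.7%). In H2A.X KO 17 could be tested, of which 4 rose and 5 fell (52.9% beside 30.9%). PRPS1, which turns ribose phosphate into the precursor of nucleotides, rose by 0.80 ± 0.04 in BAZ1B WT, 0.94 ± 0.04 in BAZ1B KO and 0.56 ± 0.12 in H2A.X KO. ENO3, the muscle enolase, fell by 1.10 ± 0.14, 1.39 ± 0.14 and 1.02 ± 0.24. ENO3 was also lower in H2A.X KO than in WT at D6 (-1.89 ± 0.26), and 1 gene of this list, ENO3, passed in the difference of the H2A.X KO effects (-2.02 ± 0.38).

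Among 20 genes of oxygen sensing and hypoxia, 16 could be tested in the BAZ1B experiment. In WT 9 rose and 4 fell from D0 to D6 (81.2% called beside 68.9% of all genes), and in KO 9 rose and 2 fell (68.8% beside 67.7%). In the H2A.X experiment 15 could be tested, of which 6 rose and 2 fell in KO from D0 to D6 (53.3% beside 30.9%), and 6 were higher and 1 lower in KO than in WT at D6 (46.7% beside 43.1%). EPAS1, encoding HIF-2α, fell by 3.09 ± 0.11 in BAZ1B WT, 4.08 ± 0.12 in BAZ1B KO, 3.21 ± 0.24 in H2A.X WT and 3.82 ± 0.20 in H2A.X KO. NDRG1 rose by 2.77 ± 0.41 and 3.52 ± 0.46 in BAZ1B WT and KO and by 2.48 ± 0.37 in H2A.X KO, and ERO1A fell by 2.63 ± 0.07, 2.28 ± 0.07 and 1.96 ± 0.20. Genes of this list thus moved in both directions. From D0 to D6, 13 of 15 had a positive change in H2A.X KO (median 0.70 beside 0.02 of all genes) and 6 of 15 in H2A.X WT (-0.14 beside 0.01). In BAZ1B WT and KO it was 10 of 16 each (0.39 and 0.40, beside -0.02 in each). Of the glycolytic genes known as hypoxia targets, SLC2A1 and ENO2 rose while LDHA, PGK1, ENO1 and PFKFB3 fell in the BAZ1B experiment. A shared response was not tested.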

How the data were processed

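RNA-Seq was done on 22 libraries of HUDEP-2 cells. The authors deposited 1 table of raw counts per gene for each experiment, unnormalized. Per the labels and the submitters' processing notes, reads were aligned to hg38 with STAR 2.7.0f, counted with featureCounts of Subread 1.6.4 and tested with DESeq2 1.22.1. The labels give an unstranded TruSeq kit and reads of 100 nt, the published methods a stranded kit and a shorter read, so strand was treated as unknown. Reads were not examined.

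Counts were normalized by TMM and fitted per experiment with edgeR 4.0.16 in R 4.3.3 (quasi-likelihood test, filterByExpr with a minimum count of 10 and total of 15, 1 coefficient per genotype and day, two-sided), which left 13236 and 13879 genes. Genes with a Benjamini-Hochberg adjusted p below 0.05 over all of them were called. SE is the absolute log2 change over the root of F. Normalized counts are counts over the relative effective library size, and levels per length are CPM per kb of the GENCODE v44 canonical transcript (36434 names matched directly, 759 by an older symbol). Shares of isozymes carry no test. Counting intervals are exact, at 95%, and cover counting error only. KO comparisons at a day and maturation comparisons within a genotype share libraries and are not independent of each other.

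Values of every library are given for the isozyme pairs that moved most and for up to 4 called members per direction with the largest change, the others by range and count. One erythroid marker of the list is not reported here. Members, lists and tests were chosen with earlier results of these data known. D0 and D6 libraries of the same number deviated together in H2A.X WT (r = 0.5) and H2A.X KO (0.298 to 0.6). With 2 libraries a day, both H2A.X WT pairs give the same value by construction. For replicates 1, 2 and 3, r was 0.541, 0.609 and 0.115 in BAZ1B KO and 0.211, -0.00219 and 0.208 in BAZ1B WT. Alternatives were DESeq2 1.42.0, no filter, no globin genes, only the compared libraries, a block, a correction for length and GC content, and each library left out. The scripts were tested on counts simulated with the biological coefficient of variation of each experiment. For KO against WT at D0, the main fit recovered 34% of 2-fold changes in the H2A.X experiment and 100% in the BAZ1B experiment. Of 4-fold changes it recovered 99% and 100%. A gene not called in the H2A.X experiment may therefore still differ by 2-fold.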

Additional observations from a re-analysis of the deposited data

Results flagged for a closer look

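In 6 genes the change from D0 to D6 differed between BAZ1B KO and BAZ1B WT by a test of the difference itself (edgeR quasi-likelihood test, adjusted over all genes). The log2 change in KO minus that in WT was -2.72 for PKM, -2.40 for SLC2A3, -0.77 for BPGM, -0.32 for VHL, 0.46 for PKLR and 0.44 for PGD. With each library left out in turn, PGD and VHL lost the call in at least 1 case, and the other 4 kept it. SLC2A3 rests on 8 reads in BAZ1B KO at D6.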

How the results depend on the processing

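Without the globin genes no call of a member changed in any comparison, and DESeq2 kept all 110 calls over the 10 comparisons and added 18. The counts of called members moved by more than 1.5 times as follows, and the cause was not tested. H2A.X KO against WT gave 11 at D0, but 20 without the filter on low counts, 19 from only the compared libraries, 5 with the length and GC correction and 7 with that correction and the block. At D6 it gave 10, but 20 without the filter and 6 from only the compared libraries. Maturation in H2A.X WT gave 1, but 5 with DESeq2, 11 without the filter, 5 from only the compared libraries, 4 with the block and 3 with block and correction. In H2A.X KO it gave 8, but 15 without the filter, 13 with the block and 16 with block and correction. The difference of the H2A.X KO effects gave 0, but 4 with DESeq2, 6 without the filter, 4 with the block and 4 with block and correction. BAZ1B KO against WT at D0 gave 1, but 7 without the filter, 2 with the block and 2 with block and correction, and the difference of the BAZ1B KO effects gave 6, but 14 without the filter. With 1 library left out in turn, the counts ran from 1 to 15 (H2A.X KO at D0), 2 to 18 (H2A.X KO at D6), 0 to 3 (H2A.X WT maturation), 7 to 13 (H2A.X KO maturation), 0 to 2 (difference of H2A.X KO effects), 0 to 5 (BAZ1B KO at D0), 10 to 18 (BAZ1B KO at D6), 28 to 30 and 27 to 29 (BAZ1B WT and KO maturation) and 4 to 7 (difference of BAZ1B KO effects). The 18 of H2A.X KO at D6 came without its KO replicate 1 of that day. Without H2A.X KO replicate 2 at D6, SLC16A3 (-1.10) and ENO2 (-0.80) in KO against WT at D6 and PFKFB4 (-1.56) in KO maturation turned sign, where the highest values with another library left out were 0.74, 1.22 and 0.59. WT and KO libraries of the same number gave r = 0.072 and 0.104 at D0 and 0.201 and 0.208 at D6 in the H2A.X experiment, which has only 2 such pairs a day, and -0.0853 to 0.221 in the BAZ1B experiment. The labels give no shared origin for these numbers, and the main fit did not take them as pairs. In KO against WT, however, the block was the replicate number, a term shared by WT and KO libraries of the same number. In maturation and in the differences of KO effects, the block was the subclone. Over all comparisons the block ended 1 call, TPI1 in BAZ1B KO at D6 (adjusted p = 0.0501 in edgeR), and added 18. With 2 WT libraries, the H2A.X experiment had less depth and precision than the BAZ1B experiment.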
